A study of Mus musculus with 18 samples.

Results

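Herpud1 and 9 other genes of the unfolded protein response (Hspa5, Xbp1, Atf4, Ddit3, Calr, Pdia4, Hsp90b1, Dnajb9 and Creld2) were followed in the ventricles of mice injected with rAAV6-blank, rAAV6-PLCβ1a or rAAV6-PLCβ1b. The genes were taken by symbol, and each of the 10 was found once among the 23457 genes of the count table and once among the 23396 genes of the FPKM table. Herpud1 was chosen because it passed the threshold against blank hearts in these samples, and the other 9 genes were chosen with earlier results of these data known. Its contrasts against blank hearts are therefore given as a description and not as a test. The choice also asked for every comparison with and without blank heart 30, the heart in which most of these genes were highest.

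The unfolded protein response is set off when proteins misfold in the endoplasmic reticulum (ER), the compartment that in cardiac muscle also stores calcium as the sarcoplasmic reticulum. Sensors in the ER membrane (IRE1, PERK and ATF6) signal to the nucleus. IRE1 splices the Xbp1 transcript, PERK favours translation of Atf4, and ATF6 is cut to release a transcription factor. The resulting factors raise chaperones and folding enzymes of the ER lumen and components of ER-associated degradation (ERAD), which passes misfolded proteins to the proteasome. Herpud1 encodes an ER membrane protein that helps to assemble the ERAD machinery and is itself a rapidly induced target of the response. Such changes can be read in transcript levels only in part, since cleavage of ATF6, phosphorylation of PERK and translation of ATF4 leave no direct trace in total RNA.

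The 18 hearts came from male C57BL/6 mice aged 17 weeks, 6 in each group. Mice were injected through the tail vein at 8 weeks of age with a vector carrying a promoter but no protein product (rAAV6-blank), with FLAG-tagged PLCβ1b, the splice variant of phospholipase Cβ1 that is active in heart, or with FLAG-tagged PLCβ1a, the variant described as inactive there. Tissue was taken 9 weeks later. The labels name both ventricles and the methods the left ventricle. The promoter of the vectors is not given in the sources used here, and no uninjected heart was analysed here, so that the virus itself is shared by all groups. Each heart is a separate animal.

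Promoters of genes of the response can carry sequence motifs through which it is known to act. The 250 bases before the RefSeq start site (GRCm38.p6, the same assembly as the mm10 of the deposited data) were searched for such motifs. They are shown here for those of the genes with a full match to an ER stress response element, either ERSE or ERSE-II. The motifs searched, on both strands, were the ER stress response element ERSE (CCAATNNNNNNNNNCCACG), ERSE-II (ATTGGNCCACG), the core of the unfolded protein response element (TGACGTGG), the cyclic AMP response element (TGACGTCA), the C/EBP-ATF element (TGATGNAAT) and the 5 bases CCACG alone. All ERSE and ERSE-II matches contain CCACG, and so does the opposite strand of TGACGTGG. Capitals mark the ERSE or ERSE-II match, and each sequence is read 5′ to 3′ on the strand of its gene.

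The first is Herpud1, at chr8:94386179-94386428 on the plus strand, the only one of the 10 genes with an ERSE-II.
Herpud1: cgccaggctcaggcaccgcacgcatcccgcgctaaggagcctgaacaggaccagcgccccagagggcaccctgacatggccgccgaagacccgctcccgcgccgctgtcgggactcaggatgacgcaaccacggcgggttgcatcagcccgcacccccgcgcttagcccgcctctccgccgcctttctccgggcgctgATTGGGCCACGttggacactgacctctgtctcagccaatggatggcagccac
The next 2 are the promoters of the main lumenal chaperones, Hspa5 (chr2:34771840-34772089, plus strand) and Hsp90b1 (chr10:86705445-86705694, minus strand). In Hsp90b1 the second stretch of capitals is an ERSE on the opposite strand.
Hspa5: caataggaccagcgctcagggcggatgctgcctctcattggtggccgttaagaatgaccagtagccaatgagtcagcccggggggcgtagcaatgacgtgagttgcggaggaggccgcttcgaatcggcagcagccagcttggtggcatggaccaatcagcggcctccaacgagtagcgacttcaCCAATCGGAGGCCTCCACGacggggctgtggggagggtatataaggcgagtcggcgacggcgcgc
Hsp90b1: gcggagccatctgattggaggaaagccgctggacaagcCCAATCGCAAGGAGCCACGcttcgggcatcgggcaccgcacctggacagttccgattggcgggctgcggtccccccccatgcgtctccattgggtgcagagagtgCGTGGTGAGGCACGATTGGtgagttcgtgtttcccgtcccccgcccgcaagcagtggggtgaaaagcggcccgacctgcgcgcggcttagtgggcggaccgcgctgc
For Calr (chr8:84847055-84847113, minus strand) and Creld2 (chr15:88819500-88819558, plus strand) the 59 bases around the match are shown, on the opposite strand in both.
Calr: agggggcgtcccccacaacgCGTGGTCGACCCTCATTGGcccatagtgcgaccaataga
Creld2: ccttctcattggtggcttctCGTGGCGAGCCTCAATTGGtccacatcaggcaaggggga

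An ERSE was found in 4 of the 10 genes (Hspa5, Calr, Hsp90b1 and Creld2), against 0.13% of 27025 genes with a promoter sequence of the same length. The ERSE-II of Herpud1 began 52 bases before the start site, and 0.037% of all genes held such a match. Neither the unfolded protein response element core (0.603% of genes) nor the cyclic AMP response element (1.77%) nor the C/EBP-ATF element (0.91%) was found in these windows for any of the 10 genes. CCACG alone was present in 7 of the 10, but also in 31% of all genes. The Herpud1 window ends within a stretch that begins as an ERSE does. Read on into the 50 bases after the start, a search added after the first matches were seen, this stretch matched 9 of the 10 fixed letters of an ERSE, beginning 18 bases before the start and ending 1 base past it. A match with at most 1 fixed letter different was present in 7 of the 10 genes (Ddit3 and Pdia4 in addition) and in 1.72% of all genes over these 300 bases, while full matches were in the same 4 genes (0.137% of all genes). Genes and motifs were both taken as known parts of the response, so that the shares over all genes are not independent evidence about these genes. A match is a description of letters and not a site shown to be bound. The RefSeq start of Herpud1 lies 71 bases before the first exon of the annotation used for counting, whereas those of the other 9 genes coincide with it.

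Sequencing gave 13246339 to 24155465 counts per heart, of which 67.1% to 71.9% fell on the 37 mitochondrial genes. The remaining 3908354 to 7591558 counts were shared by nuclear genes. All 10 genes passed the filter on low counts, from 39 to 106 counts per heart for Ddit3 and 43 to 106 for Creld2 up to 2920 to 6083 for Hspa5, and their values rest on counting precision accordingly. The annotation used for counting gives Herpud1 a single transcript of 8 exons at chr8:94386500-94395358, with no overlapping gene. It places Mars on the strand opposite to Ddit3 and the microRNA gene Mir704 within Pdia4, and counting was strand-specific. Xbp1 has 2 annotated transcripts, and gene-level counts do not separate its spliced form from the unspliced one. The Plcb1 gene, which both PLC vectors raise, had a median of 6.22 CPM (counts scaled to library size) in blank hearts. Its medians were 22.0 CPM with PLCβ1a and 46.2 CPM with PLCβ1b, and the highest blank heart (6.89) lay below the lowest heart of either PLC group (17.8). Summed markers of cardiomyocytes were 17570.7 to 19307 CPM across the hearts, whereas the 5 measured plasma and B cell markers, the cells richest in ER chaperones, summed to at most 1.38 CPM.

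Levels of the 10 genes can be compared with each other only per transcript length, and FPKM, which divides by length and library size, was used for this purpose. Hspa5 (BiP, the ER member of the Hsp70 family and the main brake on the stress sensors) was highest in blank hearts at 118 ± 23.0 FPKM (SD, n = 6). It was followed by Hsp90b1 (GRP94, the ER form of Hsp90) at 72.2 ± 15.2, Calr (calreticulin, a calcium-binding chaperone of glycoproteins) at 59.0 ± 6.41 and Herpud1 at 48.8 ± 3.66 FPKM. Herpud1 thus stood among the abundant members, well above the transcription factors. Atf4 reached 16.6 ± 1.31, Dnajb9 (ERdj4, a co-chaperone of BiP) 14.2 ± 1.57, Xbp1 12.5 ± 2.42 and Pdia4 (a protein disulfide isomerase) 8.53 ± 2.45 FPKM. Ddit3 (CHOP, the factor tied to cell death under prolonged stress) had 6.04 ± 1.39 and Creld2 (an ER-resident protein induced by stress) 3.37 ± 1.04 FPKM. Ranges over the 6 blank hearts did not overlap between Hspa5 and Hsp90b1 or between Herpud1 and Atf4, whereas all other neighbours in this order overlapped. Within each heart, nevertheless, each gene lay above its next neighbour in 6 of 6 blank hearts, except Dnajb9 above Xbp1 in 5.

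Herpud1 was lower in hearts with either PLC vector than in blank hearts. In blank hearts it ranged from 71.4 to 86.4 CPM with a median of 73.9. In PLCβ1a hearts the lowest, median and highest values were 55.8, 65.2 and 71.8 CPM, and in PLCβ1b hearts 59.7, 67.2 and 71.0 CPM. All 6 PLCβ1b hearts lay below every blank heart, and 5 of 6 PLCβ1a hearts did so, the exception being PLCβ1a heart 9. The difference was small: the log2 fold change was -0.20 ± 0.05 (SE) for PLCβ1b, a fall of 12.8%, and -0.25 ± 0.05 for PLCβ1a, a fall of 15.6%. In ventricle homogenate, fewer cells of a type and less RNA per cell cannot be told apart.

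Blank heart 30 was the highest for Herpud1 at 86.4 CPM, and the other 5 blank hearts lay between 71.4 and 76.9 CPM. Leaving out the highest blank heart cannot undo a separation that rests on the lowest one, but it made the difference smaller, with log2 fold changes of -0.16 ± 0.05 and -0.20 ± 0.05 for PLCβ1b and PLCβ1a. The deposited FPKM gave the same picture, with 44.0 to 53.8 in blank, 36.5 to 46.0 in PLCβ1a and 39.2 to 44.0 in PLCβ1b hearts, the lowest blank heart (44.02) lying just above the highest PLCβ1b heart (43.95). Separation of this kind in CPM between PLCβ1b and blank hearts was seen in 0.48% of the 12281 genes tested, and in 0.897% of 12376 genes without blank heart 30. In the edgeR fit at a false discovery rate (FDR) below 0.1, Herpud1 was the 1 member of 10 that was called, in PLCβ1a hearts only, where 0.138% of all genes were called. Herpud1 was chosen for a difference of this kind against blank hearts, so that this call is not an independent test. The call depended on the hearts and on the model. With single hearts left out in turn it held in 4 of 18 fits, so that its loss was not particular to 1 heart. It was absent without blank heart 30 (0 of 10 members called, 0.105% of all genes). It was also absent when the spread was estimated without the robust option (FDR 0.123 against 0.0734 in edgeR's quasi-likelihood test). In PLCβ1b hearts no member was called by edgeR, with 0.0977% of all genes called, and 0 again without blank heart 30 (0.0808%).

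**Figure D1:**
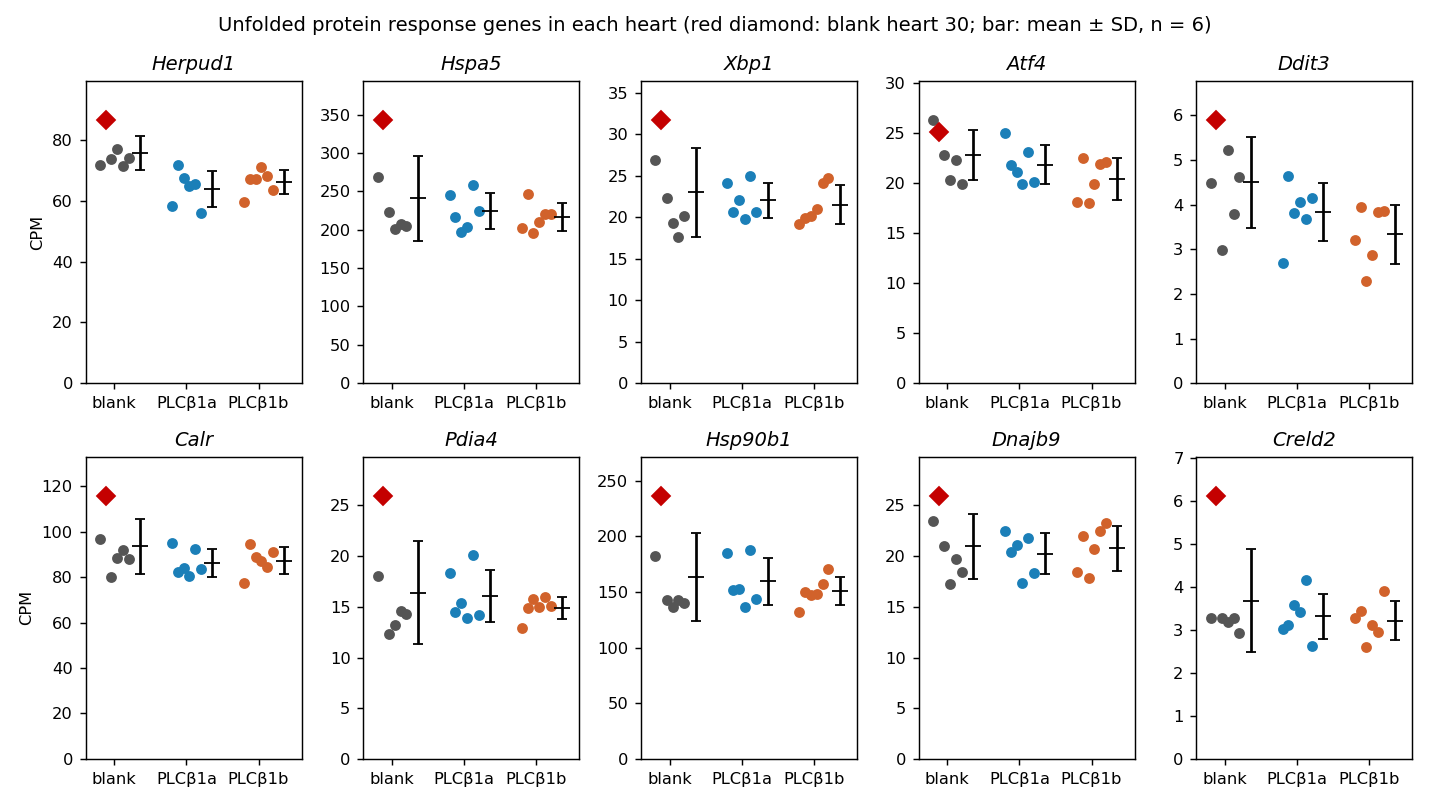
CPM (linear axes from 0) of each of the 10 genes in every heart, by vector group, with mean ± SD over 6 hearts beside the points and blank heart 30 as a red diamond. In 9 of 10 panels the diamond is the highest of all points; Herpud1 is the panel in which the PLCβ1b hearts (at most 71.0) also lie below all other blank hearts.

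Among the transcription factors, Ddit3 showed the widest difference. Its lowest, median and highest values were 2.98, 4.56 and 5.89 CPM in blank hearts, 2.70, 3.94 and 4.64 in PLCβ1a and 2.30, 3.51 and 3.95 in PLCβ1b hearts. The groups overlapped, and 2 of 6 PLCβ1b hearts lay below every blank heart. The log2 fold change was -0.45 ± 0.15 in PLCβ1b hearts (unadjusted p = 0.00543, FDR 0.417 in edgeR's quasi-likelihood test over all genes) and -0.25 ± 0.15 in PLCβ1a hearts (FDR 0.663), so that neither passed. Without blank heart 30, the highest for Ddit3 as well, the values were -0.36 ± 0.14 and -0.16 ± 0.14.

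Atf4, the effector of the PERK branch, ranged from 19.96 to 26.3 CPM in blank, 19.96 to 25.1 in PLCβ1a and 18.002 to 22.5 in PLCβ1b hearts. It is the member for which blank heart 30 (25.1 CPM) was not the highest; that was blank heart 26. Its log2 fold change was -0.15 ± 0.07 in PLCβ1b hearts (unadjusted p = 0.0427, FDR 0.661 in the edgeR fit) and -0.05 ± 0.07 in PLCβ1a hearts. Xbp1, the effector of IRE1, lay at 17.6 to 31.7 CPM in blank, 19.8 to 24.9 in PLCβ1a and 19.2 to 24.8 in PLCβ1b hearts. Both PLC groups fell inside the blank range, and the log2 fold changes of -0.09 ± 0.13 and -0.05 ± 0.13 were smaller than their standard errors.

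The chaperones of the ER lumen overlapped between all groups, and their differences from blank hearts shrank or changed sign when a single animal was left out. Hspa5 had 201 to 342 CPM in blank, 197 to 258 in PLCβ1a and 195 to 247 in PLCβ1b hearts, the 342 CPM being blank heart 30. Its log2 fold change in PLCβ1b hearts moved from -0.16 ± 0.12 to -0.03 ± 0.09 when that heart was left out, and in PLCβ1a hearts from -0.11 ± 0.12 to 0.02 ± 0.09. Hsp90b1 had 137 to 236 CPM in blank, 137 to 187 in PLCβ1a and 132 to 170 in PLCβ1b hearts, with log2 fold changes of -0.12 ± 0.13 and -0.03 ± 0.13 that became 0.02 ± 0.10 and 0.10 ± 0.10. Pdia4 ranged from 12.3 to 25.9 CPM in blank hearts, and its changes of -0.14 ± 0.16 and -0.03 ± 0.16 turned to 0.04 ± 0.10 and 0.15 ± 0.10. Thus, except for Hspa5 in PLCβ1b hearts, the sign of these genes against blank depended on whether blank heart 30 was counted, and none of them passed the test either way. Blank heart 30 was not the only such heart. In the PLCβ1a comparison the sign also changed without PLCβ1a heart 13 for Pdia4 and Hsp90b1, and without PLCβ1a heart 21 for Pdia4.

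Calr kept its sign but not its size, with 79.9 to 116 CPM in blank hearts, 80.3 to 95.2 in PLCβ1a and 77.5 to 94.4 in PLCβ1b hearts. Its log2 fold changes of -0.10 ± 0.07 (PLCβ1b) and -0.12 ± 0.07 (PLCβ1a) became -0.03 ± 0.05 and -0.05 ± 0.05 without blank heart 30. Dnajb9 lay at 17.3 to 25.9, 17.4 to 22.4 and 17.8 to 23.3 CPM in blank, PLCβ1a and PLCβ1b hearts, and its log2 fold changes (-0.01 ± 0.09 and -0.04 ± 0.09) were below their standard errors. Creld2 had the most extreme single value: 6.12 CPM in blank heart 30 against 2.92 to 3.29 in the other 5 blank hearts. Its log2 fold changes of -0.18 ± 0.15 and -0.16 ± 0.15 became 0.02 ± 0.12 and 0.04 ± 0.12 without that heart.

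Counted together, all 10 genes had a log2 fold change below 0 in both PLC groups, with medians of -0.15 in PLCβ1b and -0.08 in PLCβ1a hearts, beside medians of -0.0009 and -0.0018 over all 12281 genes tested, of which 50.4% and 50.6% were below 0. Both comparisons use the same 6 blank hearts. Without blank heart 30, 5 of 10 genes in PLCβ1b and 4 of 10 in PLCβ1a hearts were below 0, and the medians were -0.004 and 0.03. At an unadjusted p below 0.05 in the edgeR fit, 3 members (Herpud1, Atf4 and Ddit3) were lower in PLCβ1b hearts, where 7.41% of all genes passed this limit in either direction, and 1 (Herpud1) in PLCβ1a hearts, where 8.58% did. Without blank heart 30 these were Herpud1 and Ddit3 (2 of 10, background 7.6%) and Herpud1 alone (1 of 10, background 8.68%). Herpud1 was chosen on these contrasts, and its place in each of these counts is not a test. Apart from Herpud1, the counts held Atf4 and Ddit3 in PLCβ1b hearts (Ddit3 alone without blank heart 30) and no member in PLCβ1a hearts. The other members were also chosen with earlier results known, so that the counts are a description. In PLCβ1a hearts no member was fully separated from blank hearts, against 0.594% of all genes.

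**Figure D2:**
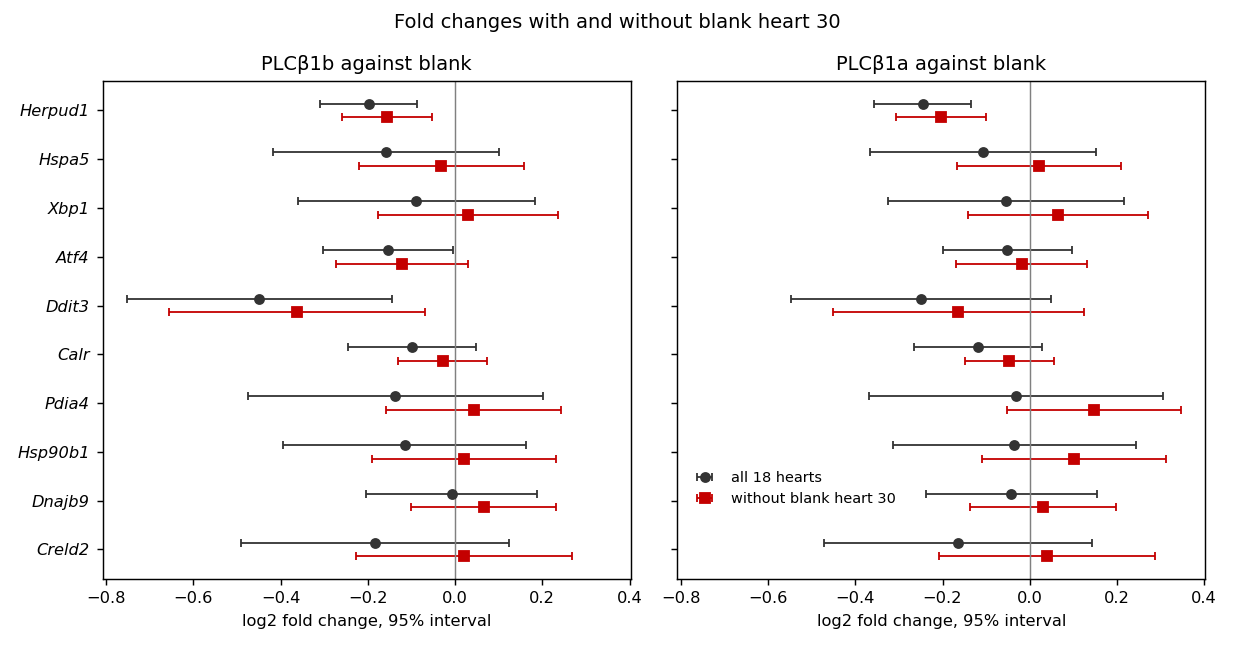
Log2 fold change against blank hearts with its 95% interval from the edgeR fit for each gene, in PLCβ1b (left) and PLCβ1a hearts (right), from all 18 hearts (black circles) and without blank heart 30 (red squares). Herpud1, which was chosen on these contrasts, moves from -0.20 to -0.16 and from -0.25 to -0.20, while Pdia4, Hsp90b1, Xbp1, Dnajb9 and Creld2 cross 0 in both panels.

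Between PLCβ1b and PLCβ1a hearts no difference in these genes passed the test. No member was called (0% of all genes were), none had an unadjusted p below 0.05 (4.42% of all genes did), and none was fully separated in CPM (0.179% of all genes). For Herpud1 the log2 difference between PLCβ1b and PLCβ1a hearts was 0.05 ± 0.05 (95% interval -0.06 to 0.16), and for Hspa5 -0.05 ± 0.12 (-0.31 to 0.21). The widest difference was again that of Ddit3, at -0.20 ± 0.15 (-0.51 to 0.11). These intervals bound the differences but do not show that the splice variants act alike. The median over the 10 genes was -0.04.

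Blank heart 30 had the highest CPM of all 18 hearts for 9 of the 10 genes. For comparison, it was the highest heart for 10.1% of all genes tested. Its ratio to the mean of the other 5 blank hearts was 1.92 for Creld2, 1.79 for Pdia4, 1.58 for Hsp90b1, 1.55 for Hspa5, 1.49 for Xbp1, 1.40 for Ddit3, 1.30 for Calr and 1.30 for Dnajb9. For Herpud1 it was 1.17 and for Atf4 1.12. Over all genes tested the median ratio was 0.994.

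The same heart stood apart in the wider ER lists, and unevenly. Of 25 ER chaperones and folding enzymes, 16 were highest in blank heart 30 (64%), and their summed level was 1420 CPM there against 974 to 1189 CPM in the other 17 hearts. Among chaperone genes outside the 10, picked after the values were seen, the highest ratios to the other blank hearts were 2.26 for Sdf2l1, 2.08 for Manf and 1.61 for Hyou1, all ER lumenal proteins known as targets of the response. In the sensor list Creb3l1, an ER-bound factor of the CREB3 family, reached 2.12 from a low level (1.38 CPM in blank heart 30). Among ERAD genes 9 of 28 were highest in this heart (32.1%), and among ER calcium handling proteins 7 of 21. The counts were 3 of 12 among stress sensors and their factors and 5 of 23 in the PERK and ATF4 list. Among translocation genes 5 of 23 were highest there (21.7%), beside 10.1% of all genes tested. The list medians of the ratio were 1.30 for chaperones but 1.06 for ERAD, 1.09 for sensors, 1.09 for the PERK and ATF4 list, 1.04 for translocation genes and 1.04 for calcium handling proteins. The 10 members were in part chosen for this heart, and every list except the translocation genes holds members. The chaperone list holds Hspa5, Hsp90b1, Calr, Pdia4, Dnajb9 and Creld2, all highest in this heart. Calr, Canx, Hspa5 and Hsp90b1 are counted in both the chaperone and the calcium handling lists. The counts are therefore a description.

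**Figure D3:**
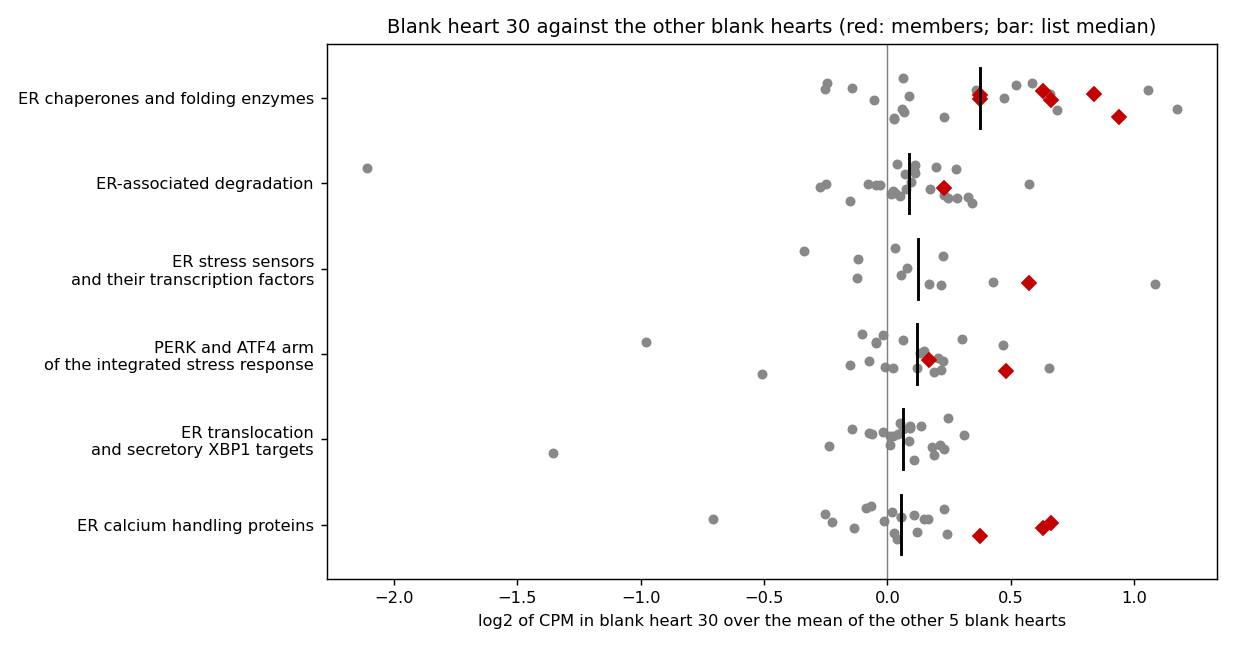
Log2 ratio of CPM in blank heart 30 to the mean of the other 5 blank hearts for every tested gene of 6 lists; red diamonds are the members and black bars the list medians. The chaperone list is shifted to the right (median ratio 1.30), and the other 5 lists are centred closer to 0 (medians 1.04 to 1.09).

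Other features of blank heart 30 that could be measured are as follows. Its mean Pearson r with the other hearts over all genes tested was 0.984, the lowest of the 18 hearts, which ranged up to 0.989. Its 14 immediate early genes summed to 82.9 CPM, the lowest of all hearts (107 to 351 CPM in PLC hearts). Its 10 cytosolic heat shock genes summed to 999 CPM, the highest of the blank hearts but within the range of the other hearts (641 to 1030). The median ratio of these 10 genes in blank heart 30 to the other 5 blank hearts was 1.24. In this heart 5 of the 10 lay above every other blank heart, beside 21.1% of all genes tested. Its endothelial markers summed to 333 CPM, the highest of 18 hearts (282 to 329 in the others), while its cardiomyocyte, fibroblast, mural and leukocyte markers lay within the range of the other blank hearts. The part of these features in its ER chaperone levels was not tested.

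Of the pathway lists as a whole, 128 of 134 named genes were tested and Herpud1 was the only gene called in any comparison. In PLCβ1b hearts 2 list genes were higher and 6 lower at an unadjusted p below 0.05, 6.25% of the 128 beside 7.41% of all genes, so that the count was no larger than the background. The genes named next are those with the lowest p and none passed the test. The higher ones were Creb3l2, an ER-bound transcription factor of the CREB3 family (8.54 against 7.38 CPM, log2 0.22 ± 0.08, FDR 0.514), and Eif2ak2, the eIF2α kinase PKR (log2 0.16 ± 0.07, FDR 0.630). Among the lower genes, the lowest p after Herpud1 and Ddit3 belonged to Casq2, calsequestrin, the calcium buffer of the cardiac sarcoplasmic reticulum (354 against 377 CPM, log2 -0.09 ± 0.04, FDR 0.599). Rcn1, a calcium-binding protein of the ER, had a log2 value of 0.12 ± 0.07 (FDR 0.705).

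In PLCβ1a hearts 4 list genes were higher and 4 lower at the same limit, again 6.25%, below the 8.58% of all genes. Those with the lowest p were Itpr1, an IP3 receptor (log2 0.12 ± 0.05, FDR 0.481), Eif2ak4, the eIF2α kinase GCN2 (0.21 ± 0.09, FDR 0.483), and Atp2a3, an ER calcium pump (0.21 ± 0.10, FDR 0.523), and, in the other direction, Trib3, a target of ATF4 and CHOP (0.403 against 0.683 CPM, log2 -0.78 ± 0.35, FDR 0.518), and Casq2 (-0.09 ± 0.04, FDR 0.518). Between PLCβ1b and PLCβ1a hearts, 2 list genes (1.56%, against 4.42% of all genes) passed the unadjusted limit, Casq1 (log2 -0.46 ± 0.19) and Kdelr1, a receptor that returns escaped ER proteins (-0.11 ± 0.06), both at FDR 0.9999 in the edgeR fit. Next came Ryr2 (-0.08 ± 0.04), Ssr4 (0.14 ± 0.07), Ngly1 (0.08 ± 0.06) and Sil1 (0.12 ± 0.09).

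By list, the median log2 fold change against blank in PLCβ1b and PLCβ1a hearts was -0.06 and -0.06 for the 25 chaperones, -0.02 and -0.02 for 28 ERAD genes, -0.03 and -0.03 for 23 translocation genes, -0.04 and -0.02 for 21 calcium handling proteins, -0.05 and -0.05 for 23 genes of the PERK and ATF4 list, and -0.01 and 0.02 for 12 sensors. The chaperone list holds some of the members. In it 22 of 25 genes were below 0 in PLCβ1b and 21 in PLCβ1a hearts, beside 50.4% and 50.6% of all genes. Without blank heart 30 these counts were 12 and 9 of 25, and the medians 0.01 and 0.01. In 2 further lists, the 14 immediate early genes (of which Atf3 is also in the PERK and ATF4 list) had medians of 0.43 and 0.60 and the 10 cytosolic heat shock genes -0.17 and 0.11, with 0 genes called in either list by edgeR. At an unadjusted p below 0.05, 1 immediate early gene was lower in PLCβ1b hearts (7.14%, background 7.41%), and in PLCβ1a hearts 5 were higher and 1 lower (42.9%, background 8.58%). No heat shock gene (0) passed in either. The 6 became 3 (background 8.68%) when blank heart 30, the lowest heart for 7 of these 14 genes, was left out. In PLCβ1a heart 7 the immediate early genes summed to 351 CPM, the next heart having 227, and 10 of the 14 were highest there. The part of these hearts in the counts was otherwise not tested.

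Across hearts, with group means subtracted, 8 of the 10 genes were more closely correlated with each other than with Herpud1 and Ddit3. The 8 were set apart on these same correlations, so that their values are a description. The median Pearson r over the 28 pairs among these 8 was 0.77 (0.46 to 0.95), with the tightest pairs Hsp90b1 and Pdia4 (0.95), Hsp90b1 and Xbp1 (0.92), and Atf4 and Dnajb9 (0.92). Herpud1 had a median r of 0.30 with the other 9 genes (0.10 to 0.49) and Ddit3 of 0.22 (0.12 to 0.43). The ranges touched: r was 0.49 between Herpud1 and Creld2 and 0.46 between Atf4 and Creld2. Over all pairs of tested genes the median r was 0, and 0.554% of pairs reached the median of 0.65 over the 45 pairs of members. These points share libraries, and part of the agreement was carried by blank heart 30.

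Without blank heart 30 the median r over the 8 genes was 0.67 (0.18 to 0.94, 17 hearts), but Creld2 no longer stood with the others. Its r with the other 7 had a median of 0.32 (0.18 to 0.46), whereas the 21 pairs among those 7 had a median of 0.75 (0.40 to 0.94). The median over all 45 pairs was then 0.40, a value reached by 8.29% of all gene pairs. Atf4 and Dnajb9 held at 0.94 and Hsp90b1 and Pdia4 at 0.89. For Herpud1, whose r had all been above 0 with 18 hearts, r now ranged from -0.20 with Hspa5 to 0.21 with Ddit3, with a median of -0.04. Ddit3 had a median r of -0.004. On the FPKM scale with all 18 hearts, the median r of Herpud1 with the others was 0.03.

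**Figure D4:**
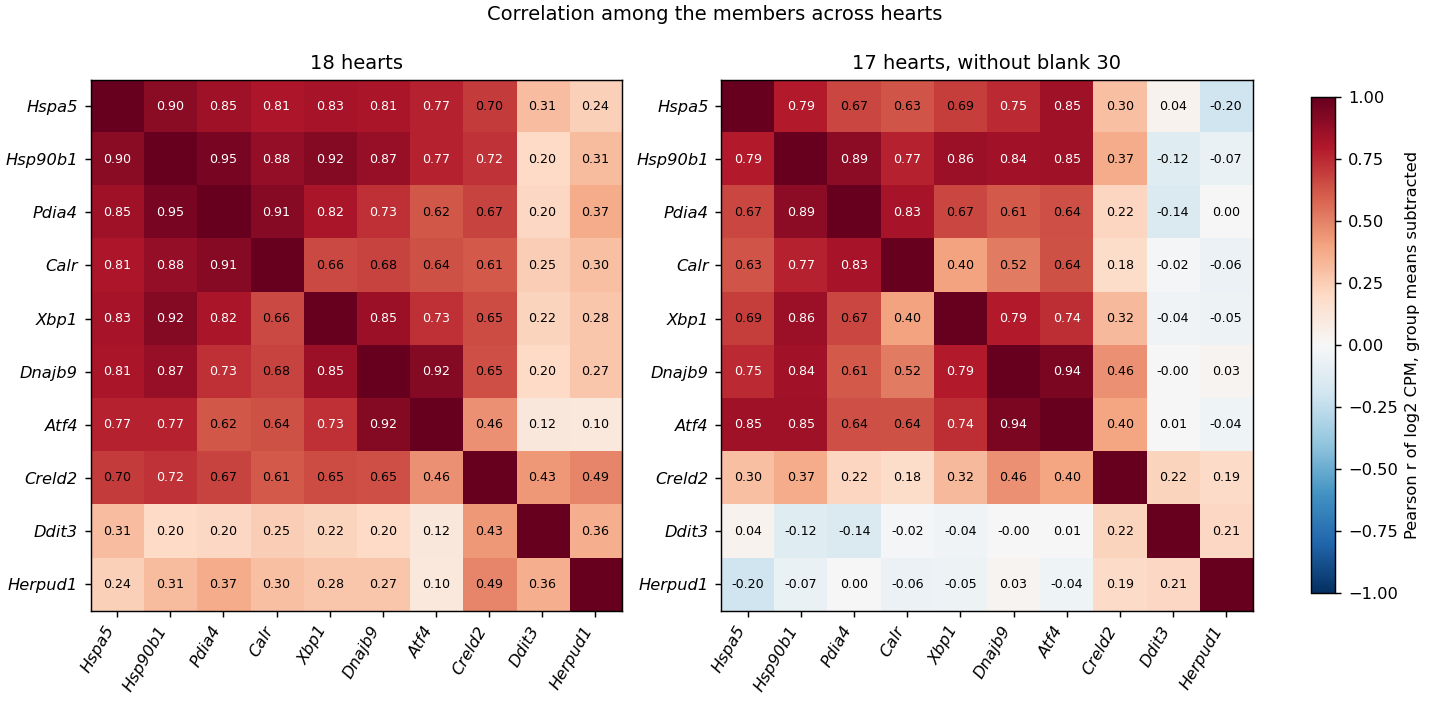
Pearson r of log2 CPM between each pair of genes across hearts after subtraction of group means, for 18 hearts (left) and for 17 hearts without blank heart 30 (right); red is positive, blue negative and the values are printed in the cells. The block of Hspa5, Hsp90b1, Pdia4, Calr, Xbp1, Dnajb9 and Atf4 stays red in both panels, and the last 2 rows, Ddit3 and Herpud1, become pale (r between -0.20 and 0.22) on the right.

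Taken as deviations from the mean of their own group, which place hearts above and below 0 in each group by construction, the hearts farthest from 0 in the 8 genes were as follows. The median deviation was 0.51 on the log2 scale in blank heart 30, 0.18 in blank heart 26, 0.20 in PLCβ1a heart 14, 0.15 in PLCβ1a heart 7 and 0.15 in PLCβ1b heart 17, and at the other end -0.22 in blank heart 33, -0.18 in blank heart 36 and -0.17 in PLCβ1b heart 4. In blank heart 30, PLCβ1a heart 14 and PLCβ1b heart 17 all 8 genes were above their group means. Among these hearts high in the 8 genes, Herpud1 deviated by 0.19 in blank heart 30 and 0.04 in PLCβ1a heart 14. It deviated by -0.08 in blank heart 26, -0.13 in PLCβ1a heart 7 and -0.06 in PLCβ1b heart 17. The r of Herpud1 with the mean of the 8 was 0.35 over 18 hearts and -0.02 over 17.

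**Figure D5:**
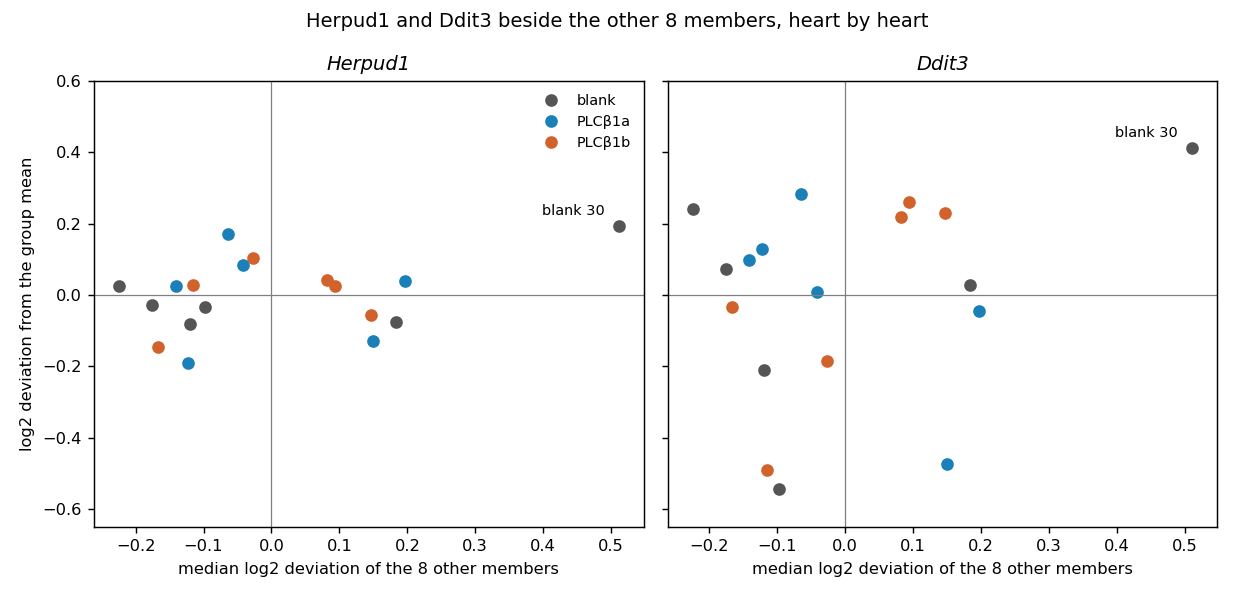
Log2 deviation of Herpud1 (left) and Ddit3 (right) from the mean of their group, against the median deviation of the other 8 members, with 1 point per heart coloured by group. Blank heart 30 lies alone at the right (0.51), and over the remaining 17 points r with the mean of the 8 genes is -0.02 for Herpud1 and -0.01 for Ddit3.

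The genes whose pattern was most like that of Herpud1 over the 18 hearts came from outside the response. By Pearson r of log2 CPM with group means subtracted, over 12280 genes, they were Gtf2f1 (r = 0.86), Pnp (0.81), Zbtb16 (0.81), Slc43a3 (0.80) and Repin1 (0.79). The nearest member was Creld2 (0.49), at rank 414, and the median r of all genes with Herpud1 was -0.01. Without blank heart 30, Gtf2f1 stayed first at 0.85 and the others had r of 0.76, 0.74, 0.73 and 0.73, at ranks 8, 10, 12 and 13. Other settings changed the order. Without subtraction of group means Gtf2f1 had r = 0.50 (rank 357), Pnp 0.88 (rank 1) and Zbtb16 0.88 (rank 2). On log2(FPKM + 0.1) Pnp had r = 0.56 (rank 167), Zbtb16 0.82 (rank 1) and Gtf2f1 0.82 (rank 2). None of the 5 passed the test against blank hearts. The medians of Zbtb16 were 52.9 CPM with the blank vector, 38.4 with PLCβ1a and 37.2 with PLCβ1b (log2 -0.54 ± 0.14 and -0.64 ± 0.14 for PLCβ1a and PLCβ1b, FDR 0.256 and 0.188 in the edgeR fit). For Pnp the log2 values were -0.32 ± 0.12 and -0.25 ± 0.12, for Repin1 -0.13 ± 0.09 and -0.15 ± 0.09, and for Slc43a3 -0.10 ± 0.10 and -0.14 ± 0.10. Gtf2f1 had 0.05 ± 0.08 and -0.12 ± 0.08, with medians of 6.71, 7.16 and 6.23 CPM in blank, PLCβ1a and PLCβ1b hearts.

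Because vector transcript differed between hearts (Plcb1 at 17.8 to 29.2 CPM in PLCβ1a and 23.2 to 69.99 CPM in PLCβ1b hearts), each member was set against Plcb1 within each PLC group. None of the 20 relations passed an exact permutation test over the 720 pairings of 6 hearts after Benjamini-Hochberg adjustment. For Herpud1, Pearson r was -0.39 in PLCβ1b hearts (two-sided exact permutation p = 0.447, adjusted 0.675; Spearman rho -0.49, exact permutation p = 0.356, adjusted 0.878). In PLCβ1a hearts its r was -0.25 (exact permutation p = 0.667, adjusted 0.784; rho 0.09, p = 0.919, adjusted 0.968). Without the 2 hearts farthest from the median of Plcb1, r became 0.20 and 0.51, so that even the sign rested on those hearts. The strongest relation was that of Pdia4 in PLCβ1b hearts, with r = -0.78 (exact permutation p = 0.0597, adjusted 0.675), rho = -0.94 (p = 0.0167, adjusted 0.333) and r = -0.87 without the 2 farthest hearts.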

How the data were processed

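Total RNA from the ventricles of 18 mice was depleted of ribosomal RNA and sequenced as strand-specific, paired-end TruSeq libraries. The authors aligned reads to mm10 (UCSC iGenomes) with TopHat2 2.0.10 and deposited raw HTSeq counts per gene (union mode, strand-specific), which were used here unchanged. The deposited FPKM table is the authors' own, and Cufflinks 2.1 is among the tools named in the submitters' processing notes without a stated role. No sample was dropped and no batch is given in the sources used here.

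Groups were taken from the sample labels. Counts were scaled by TMM, filtered (filterByExpr, minimum count 10, minimum total 15, leaving 12281 genes) and tested in edgeR 4.0.16 (R 4.3.3) with the quasi-likelihood test, robust estimation of the spread and all 18 hearts in the fit. The Benjamini-Hochberg adjustment ran over every gene that passed the filter, with calls made at FDR below 0.1. The robust option was set after the files were seen, and its omission is given as an alternative. CPM are counts divided by the TMM-scaled library size, and correlations used log2 CPM with a prior count of 2. Alternatives were DESeq2 1.42.0, edgeR's exact test, other scalings and filters, limma 3.58.1 on log2(FPKM + 0.1) and log2(FPKM + 1), and each heart left out in turn. The scripts were tested on simulated data.

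The members, gene lists and tests were chosen with earlier results of these data known. Named genes were the 10 members, Plcb1, list genes called or with the 3 lowest p-values per direction and comparison, and the 5 genes most correlated with Herpud1. Promoter sequences are from RefSeq (GRCm38.p6), and all 10 members matched by symbol. Protein sequences were not used here. Markers not found in the count table were Ighm, Hbb-bs and Hbb-bt. With 6 hearts per group, p-values of the edgeR fit weigh a difference against the spread between animals, estimated over all groups together. Permutation p-values rest on the pairings of the 6 hearts of a group.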

Additional observations from a re-analysis of the deposited data

Results flagged for a closer look

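In each group of 6 hearts, the highest and lowest value of every member was compared with the gap to its neighbour (Dixon's criterion). Over 30 such groups, chance alone would mark about 1 in 20. The groups share hearts and are not independent of each other. Blank heart 30 was singled out when the genes were chosen, so that its flags are a description and not a test. Herpud1 in blank heart 30 (86.4 CPM) lay above the other 5 blank hearts (71.4 to 76.9), and Creld2 in the same heart (6.12 CPM) lay above 2.92 to 3.29. Pdia4 in PLCβ1b heart 4 was low at 12.9 CPM, against 14.9 to 15.9 in the other 5 PLCβ1b hearts. For the other members blank heart 30 was also high, but with blank heart 26 or others nearer to it the criterion was not met. No member was flagged for a difference between PLCβ1b and PLCβ1a effects.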

How the results depend on the processing

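Herpud1 was the member called in PLCβ1a hearts, and the count of 1 became 0 in 5 settings: without robust estimation (added after the data were seen), with only the groups compared, by limma on log2(FPKM + 0.1) and log2(FPKM + 1), and at FDR below 0.05. With single hearts left out the count ranged from 0 to 1 and was 1 in 4 of 18 fits. The same held for the pathway lists, whose only called gene was Herpud1 (1, and 0 to 1 in the alternatives). Across all settings its FDR in that comparison ran from 0.0136 (no filter on low counts) to 0.225, with a log2 fold change of -0.28 to -0.20, and with single hearts left out it lay at -0.22 to -0.16 in PLCβ1b hearts, where it was never called. The cause of these losses was not tested. In PLCβ1b hearts, and between the PLC groups, 0 members were called under every setting run.

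With single hearts left out, signs changed in PLCβ1b against blank for Xbp1 (-0.158 to 0.030), Pdia4 (-0.198 to 0.0431), Hsp90b1 (-0.162 to 0.0204), Dnajb9 (-0.060 to 0.0653) and Creld2 (-0.253 to 0.0206). In PLCβ1a against blank they changed for Hspa5 (-0.154 to 0.0216), Xbp1 (-0.123 to 0.065), Pdia4 (-0.0928 to 0.148), Hsp90b1 (-0.0839 to 0.101), Dnajb9 (-0.0943 to 0.0314) and Creld2 (-0.233 to 0.0397). The upper end was the fit without blank heart 30 in each case. Signs also changed without certain other single hearts for Dnajb9 in PLCβ1b against blank, and for Pdia4 and Hsp90b1 in PLCβ1a against blank. Between PLCβ1b and PLCβ1a they changed for Calr (-0.0062 to 0.0508), Dnajb9 (-0.0059 to 0.0756) and Creld2 (-0.0827 to 0.0381). The members' median was -0.189 to -0.0042 in PLCβ1b and -0.123 to 0.0265 in PLCβ1a hearts, the upper ends again without blank heart 30. On FPKM, r of Calr with Plcb1 in PLCβ1b hearts was 0.0109 (-0.25 on CPM). Of the 5 genes most like Herpud1, 1 remained without blank heart 30, 2 on FPKM and 2 without subtraction of group means. The order of levels was unchanged for all 10 genes by CPM per kilobase and without any single blank heart.

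No paired analysis was possible because mouse numbers are not shared between groups. Depth limits Ddit3 and Creld2 (39 to 106 counts per heart), and n = 6 limits all comparisons.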
